A study of Mus musculus with 12 samples.

Results

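Clustered distal H3K27ac regions are stretches of chromatin that carried acetylated histone H3 lysine 27 in every library, lay apart from H3K4me3 and H3K9me3 peaks, and stood close to others of their kind. They were chosen by measured values, namely the presence and position of the deposited peaks. Merging H3K27ac peaks that shared 1 bp or more on chromosomes 1 to 19 gave 48955 regions. Of these, 13094 had a peak in all 4 H3K27ac libraries, and 4619 of those overlapped no peak of any H3K4me3 or H3K9me3 library (distal regions). Distal regions with gaps of 12500 bp or less were joined, and groups of 3 or more were kept. This gave 191 regions in 60 groups, which is 4.14% of the distal regions and 1.46% of the regions found in all 4 libraries. Another 660 distal regions stood in 330 pairs and 3768 stood alone.

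The cells were E14TG2a mouse embryonic stem cells grown in medium with 15% serum, mercaptoethanol at 0.1 mM, LIF at 1000 U/ml, the MEK inhibitor PD0325901 at 1 µM and the GSK3 inhibitor CHIR99021 at 3 µM. They were either wild type (WT) or carried del-cIDR, a deletion in Alkbh5, the gene for an RNA N6-methyladenosine demethylase, that removes a C-terminal intrinsically disordered region of the protein. CUT&Tag was used for H3K27ac and H3K4me3, and CUT&RUN for H3K9me3, with 2 libraries per genotype and mark and 12 in all. The labels give neither the number of clones nor whether the replicates were separate cultures, so the permutation p-values speak of the spread among these libraries, and that spread may be technical.

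H3K27ac is laid down by the acetyltransferases p300 and CBP at active enhancers and promoters, while H3K4me3 marks promoters. Large clusters of acetylated enhancers, often called super-enhancers, are known in embryonic stem cells for lying near genes of the pluripotency network and for binding the master factors OCT4, SOX2 and NANOG together with Mediator. Such clusters are usually found by joining neighbouring enhancers and ranking the joined units by signal, where a small number stand far above the others. The deposited lists hold peaks with values per peak but no signal tracks. The groups here were ranked by length, as the rule asks, and not by those values. No genome or gene table of the files' build, GRCm39, was used here. Groups are therefore named by position, no gene is assigned to them, and neither the marker genes of embryonic stem cells nor the sequences under the peaks were examined.

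Ranked by length, the groups formed a graded series with no subset far above the rest. Covered bases, the summed length of a group's merged regions, ran from 1819 to 6076 bp with a median of 3243 bp, a 3.34-fold range. The first 12 groups held 28.5% of all covered bases and the first held 2.92%. There were 52 groups of 3 regions, 5 groups of 4 and 3 groups of 5. Spans ran from 3975 to 29872 bp with a median of 15923.5 bp, and a median of 21.6% of a span was covered by its distal regions. All 60 spans together measured 1.01 Mb and held 208.3 kb of clustered regions. In these lists the groups were thus clusters by position. The length ordering gives no basis for the name super-enhancer, and they are called clustered distal regions here.

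The gaps between neighbouring regions of a group had a median of 6275 bp over 131 gaps, 48 of them under 5 kb and 23 of 10 kb or more. The widest gaps that were still joined measured 12330 and 12135 bp. The narrowest that were not joined, where joining would have made or enlarged a group, measured 12595 and 12780 bp. Chromosomes 4 and 11 held 7 groups each, chromosomes 1 and 9 held 5 each, and chromosome 18 held none although it had 154 distal regions.

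**Figure D1:**
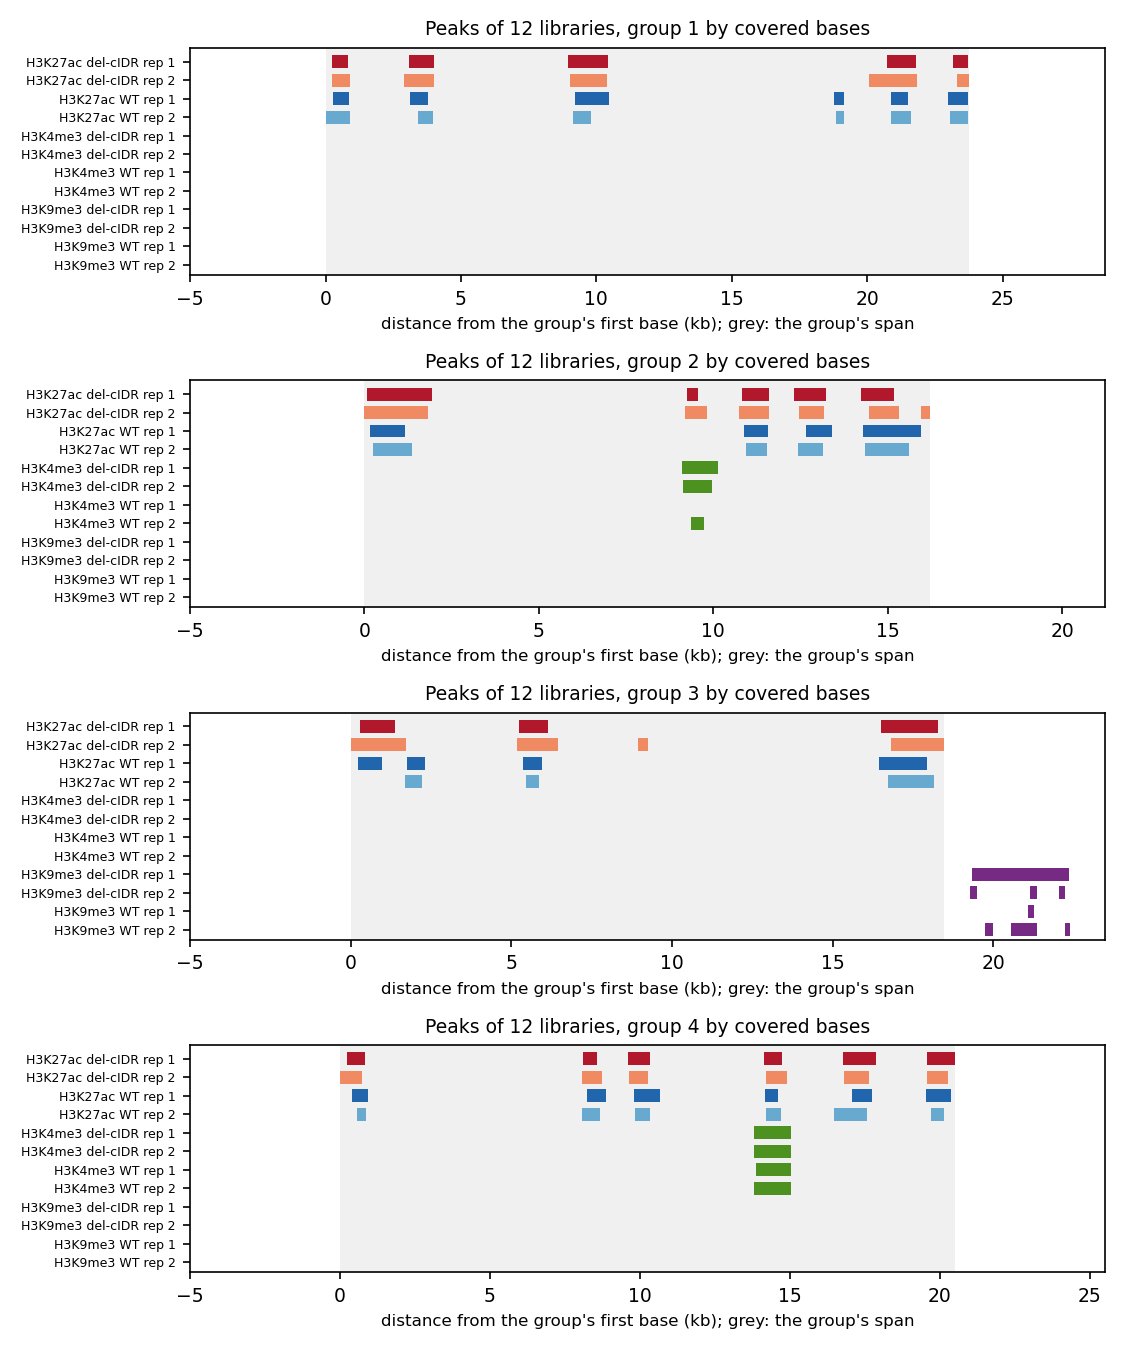
Peaks of all 12 libraries in and around the 4 groups with the most covered bases, as blocks along the distance from the group's first base (kb), with the group's span in grey and 1 row per library. Most H3K27ac blocks of the 4 libraries line up, except in the first region of group 3 where those of WT replicate 2 and del-cIDR replicate 1 lie side by side, and the span of group 4 holds an H3K4me3 peak of all 4 libraries between its distal regions.

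The group with the most covered bases lay at 11:8516172-8539940 and held 5 regions with 6076 bp covered. Within its span the peaks measured 4631 and 5327 bp in the del-cIDR libraries and 4274 and 3785 bp in the WT libraries, so both del-cIDR values lay above both WT values. Here and for the groups below, these lengths count every H3K27ac peak in the span, also those outside the distal regions. No H3K4me3 or H3K9me3 peak of any library fell in the span, and the nearest H3K4me3 region found in all 4 libraries was 13.1 kb away, at 11:8553060-8553622. Fold enrichment, the authors' ratio of a peak over an expected background in the same library, differed widely along the group. The extent of that background around a peak is not given. The region 11:8525111-8526644 had folds of 5.08 and 5.50 in del-cIDR and 4.09 and 5.28 in WT. The last region, 11:8539145-8539940, had 2.71 and 2.65 in del-cIDR and 2.99 and 3.05 in WT, lower in every library. A further H3K27ac region in the span, 11:8534937-8535314, had a peak in both WT libraries only, with folds of 2.11 and 2.43.

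The second group, 3:101059907-101076129, held 4 regions with 5851 bp covered, 36.1% of its span. Its peaks measured 4802 and 5180 bp in del-cIDR and 4110 and 3657 bp in WT, again without overlap between the genotypes. Between its distal regions lay 3:101069085-101069712, with H3K27ac in both del-cIDR libraries, at folds of 2.53 and 2.60, and in neither WT library. This site carried H3K4me3 in 3 of the 4 H3K4me3 libraries, both of del-cIDR and 1 of WT. The third group, 11:29586548-29605017, held 3 regions with 5593 bp covered, and its peaks measured 3720 and 4987 bp in del-cIDR and 3367 and 2390 bp in WT. Its first region, 11:29586548-29588851, was the widest clustered region at 2304 bp, and there the peaks of WT replicate 2 and del-cIDR replicate 1 were chained by those of the other libraries without overlapping each other. An H3K9me3 region began 0.798 kb beyond the end of this group.

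The fourth group, 11:12399944-12420451, and the fifth, 14:64877113-64895364, both enclosed an H3K4me3 region found in all 4 libraries. The fourth held 5 distal regions, and its peaks measured 4476 and 4328 bp in del-cIDR and 3977 and 3465 bp in WT. The fifth held 4, and its values of 3823 and 4349 bp in del-cIDR and 3927 and 3559 bp in WT overlapped between the genotypes. The sixth group, 6:6197532-6213526, ended 2.80 kb from an H3K4me3 region and measured 3884 and 4311 bp in del-cIDR and 3622 and 2675 bp in WT. All the H3K27ac in its span belonged to its 3 distal regions.

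The seventh group, 19:14612367-14642238, had the longest span, 29.9 kb, and 4 regions. Its libraries gave 4280 and 3496 bp in del-cIDR and 3438 and 3660 bp in WT, which overlapped. The span held 2 H3K9me3 regions away from its distal regions. The eighth group, 4:55463594-55478664, had the widest difference between genotypes among the first 12, with 5308 and 5116 bp in del-cIDR and 3550 and 2908 bp in WT, a log2 ratio of means of 0.69. In its distal regions alone the peaks measured 4349 and 4287 bp in del-cIDR and 3175 and 2483 bp in WT. It lay 1.47 kb from an H3K4me3 region at 4:55480139-55481593.

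Of the next 4, the groups at 9:37001126-37029501 and 4:123538587-123561461 held 4 regions, and the one at 12:87359011-87378271 held 5. The first had 3834 and 3696 bp in del-cIDR and 2655 and 2647 bp in WT. The group on chromosome 4 had 4390 and 5490 bp against 3870 and 3942 bp, and it too enclosed an H3K4me3 region of all 4 libraries. Its distal regions alone held 3414 and 3661 bp in del-cIDR and 3251 and 3047 bp in WT. On chromosome 12 the values were 3737 and 3336 bp in del-cIDR and 4422 and 2858 bp in WT, where the highest and the lowest value were both WT. The last of the 12, 10:36793606-36813268, had 3 regions and 3743 and 2807 bp in del-cIDR against 2544 and 2381 bp in WT. All 8 groups of 4 or 5 regions are among these 12. The following 5 groups by covered bases, at 3:89997899-90010549, 17:32020937-32035463, 4:141279490-141300836, 5:110948251-110963017 and 10:59997132-60011870, held 3 regions each and covered 3851 to 4138 bp.

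**Figure D2:**
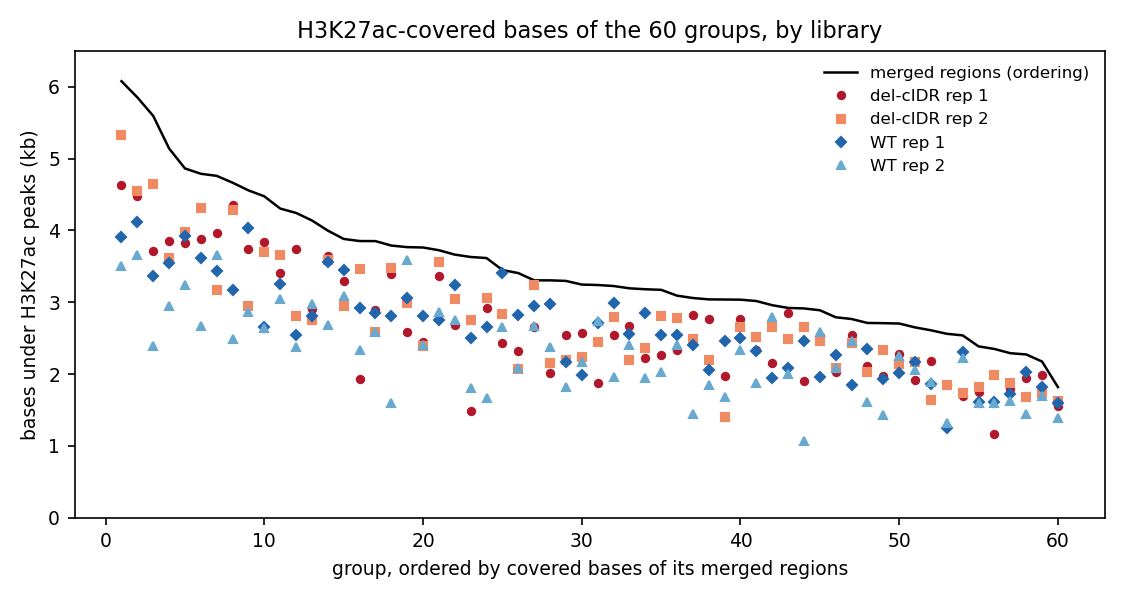
Bases under H3K27ac peaks in the distal regions of each of the 60 groups (kb, linear axis from 0), for the 4 libraries as points, with groups ordered by the covered bases of their merged regions (line, 6076 bp falling to 1819 bp). The line falls gradually after the first few groups, and the points of the 4 libraries scatter below it.

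The ordering of the groups differed in part between libraries. Of the 12 groups with the most covered bases, 11 and 9 were also among the first 12 by the peaks of del-cIDR replicates 1 and 2, and 9 and 7 by those of WT replicates 1 and 2. Over the 60 groups the peak bases in the spans correlated between libraries with Spearman's rho of 0.81 for the del-cIDR pair, 0.68 for the WT pair and 0.64 to 0.74 across genotypes. This is a description, since the libraries share the spans and every group was chosen to have peaks in all of them.

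Individually the clustered regions were no longer than other distal regions. The median merged width was 1012 bp for clustered and 1061 bp for isolated regions, and 1098.5 bp for all regions found in 4 libraries. Peak length within a region had a median of 783 and 787 bp in the del-cIDR libraries and 766 and 664 bp in the WT libraries. Isolated regions had 783, 787, 766 and 688 bp in the same order. The log2 ratio of the medians was -0.01 ± 0.03 (SD, n = 4 libraries). Regions of 2 kb or more made up 2.09% of the clustered and 2.92% of the isolated set, 4 clustered regions in all.

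By fold enrichment the clustered regions ranked low. Fold was ranked within each library among the 13094 regions found in all 4, so that 0 is the lowest and 100 the highest percentile. The median clustered region stood at 10.9 and 12.3 in del-cIDR and at 17.7 and 14.0 in WT. Pairs stood at 25.4, 20.8, 29.1 and 27.9, and isolated regions at 39.1, 37.4, 46.7 and 44.6. Regions with H3K4me3 stood at 57.3, 58.3, 53.6 and 54.5. Clustered regions were thus below isolated regions in 4 of 4 libraries, by 28.2 ± 2.32 percentile points (SD, n = 4, exact sign-flip permutation p = 0.125, the smallest 4 libraries allow). Clustering was defined without the fold, but the isolated set was defined by the same rule, so the difference is a description of these sets.

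The same regions did not stand apart when they were ranked by −log10 q, the strength of evidence the peak caller gave each peak. Here clustered regions had medians at the 39.0th and 36.0th percentile in del-cIDR and the 44.0th and 39.0th in WT. Isolated regions had 34.4, 32.4, 42.2 and 41.0. The difference turned to 1.99 ± 2.86 points higher in clustered regions (SD, n = 4, exact sign-flip permutation p = 0.375). The lower rank of clustered regions therefore held for the fold only. In untransformed values the median −log10 q of clustered regions was 9.05 and 10.2 in del-cIDR and 7.45 and 6.28 in WT, beside 8.28, 9.42, 7.23 and 6.49 for isolated regions.

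**Figure D3:**
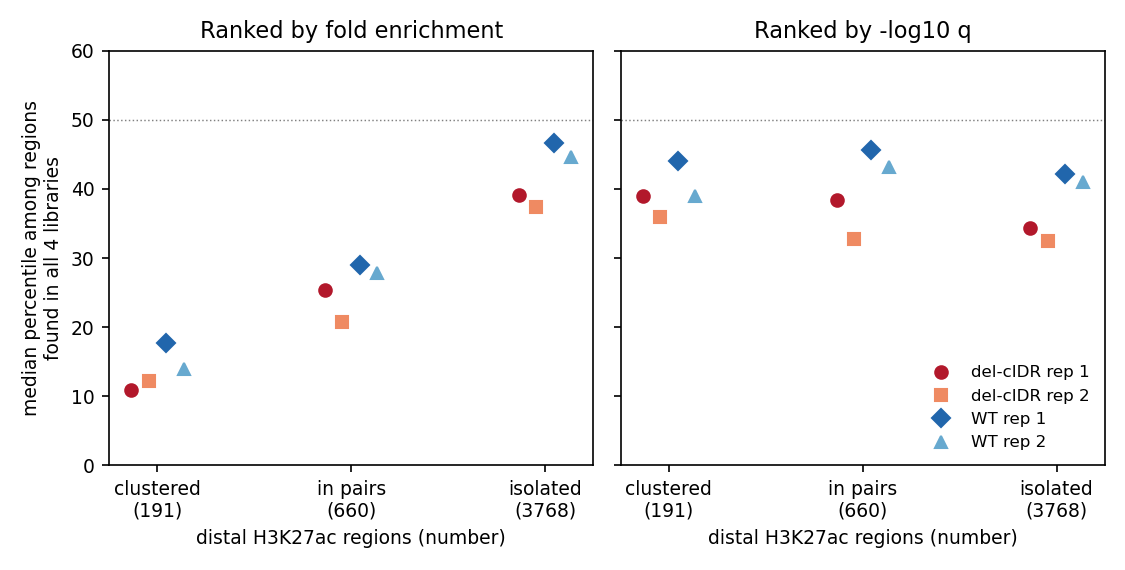
Median percentile of clustered, paired and isolated distal regions among the regions found in all 4 libraries, per library, ranked by fold enrichment (left) and by −log10 q (right), with the dotted line at 50. Ranked by fold, the 4 clustered medians lie between 10.9 and 17.7, below all others, while ranked by −log10 q the 3 sets lie side by side.

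The fold rank moved with how many other H3K27ac regions, of any library, lay within 10 kb. Isolated regions with none had median percentiles of 52.6 and 49.5 in del-cIDR and 60.2 and 56.1 in WT. With 4 or more such neighbours, none of them a distal region, they had 10.5, 12.5, 16.8 and 14.0. Clustered regions went the same way, from 44.1, 40.9, 35.5 and 38.2 for the 25 regions with 1 neighbour to 3.00, 3.77, 5.10 and 4.24 for the 47 regions with 4 or more. The median −log10 q showed no such decline, with 8.65, 9.91, 7.37 and 6.59 for isolated regions with no neighbour and 8.10, 10.5, 7.69 and 6.98 for those with 4 or more. The part that density has in the low fold of clustered regions was not tested beyond these values.

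**Figure D4:**
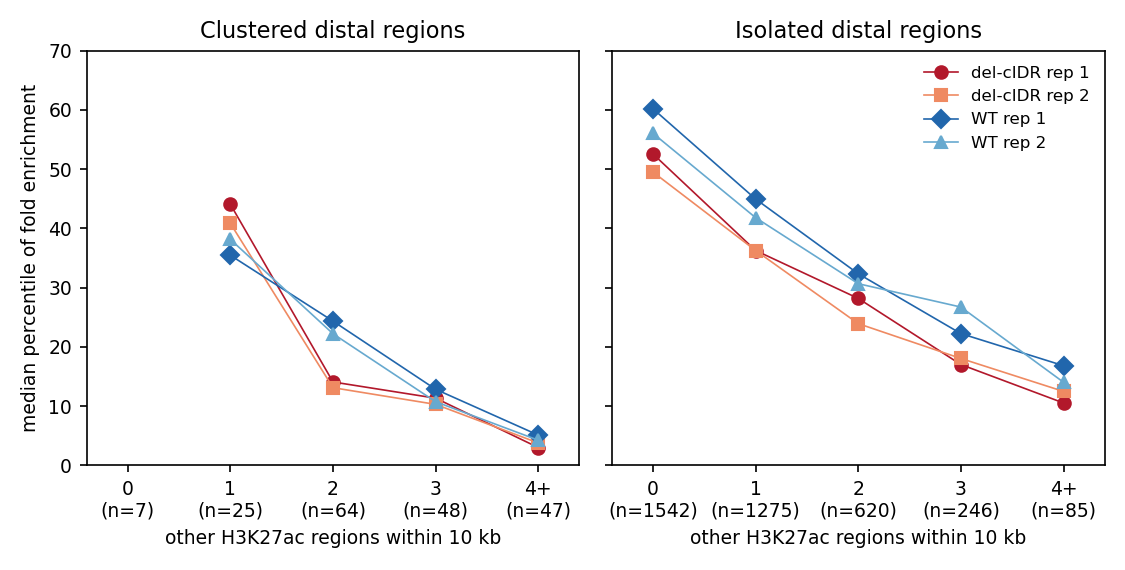
Median percentile of fold enrichment of clustered (left) and isolated (right) distal regions by the number of other H3K27ac regions within 10 kb, per library, with the number of regions under each class and classes of fewer than 20 regions left blank. In both sets and all 4 libraries the percentile falls as neighbours increase, to between 3.00 and 5.10 for clustered regions with 4 or more.

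A minority of clustered regions ranked high by fold. Only 9 lay above the 50th percentile of fold in all 4 libraries (4.71%, against 19.8% of isolated regions), while 89 (46.6%) lay below the 25th percentile in all 4, against 10.4% of isolated regions. The 2 with the highest mean percentile of fold shared the group at 11:30421658-30442476. The first, 11:30441117-30442476, had folds of 7.69 and 8.43 in del-cIDR and 8.02 and 8.22 in WT, and the other, 11:30421658-30422401, had 9.69 and 9.73 in del-cIDR and 6.89 and 7.001 in WT. By evidence rather than fold, 4:130366783-130368001 led in every library, with a −log10 q of 58.5 and 65.4 in del-cIDR and 39.4 and 37.5 in WT at folds of only 4.44 to 4.97. These regions were singled out after their values were seen.

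The clustered regions lay nearer to H3K4me3 sites, and farther from H3K9me3, than isolated regions did. The nearest H3K4me3 region found in all 4 libraries was at a median of 16.8 kb (interquartile range 4.97 to 37.4 kb) from clustered regions, 20.1 kb from pairs and 27.6 kb (8.87 to 84.1 kb) from isolated regions. Within 10 kb of such a site were 72 clustered regions (37.7%) against 26.9% of isolated regions, and beyond 50 kb were 33 (17.3%) against 35.4%. For H3K9me3, the mark of constitutive heterochromatin, the nearest peak of any library was counted. It was at a median of 57.0 kb from clustered, 35.8 kb from paired and 26.8 kb from isolated regions. All these regions were chosen to overlap neither mark, and the distances are given as a description.

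The H3K4me3 sites nearest to clustered regions numbered 73. Of these, 40 (54.8%) carried H3K27ac in all 4 libraries, beside 49.9% for isolated regions and 41.8% of all 15566 H3K4me3 regions found in 4 libraries. Their median width was 1434 bp, against 1295 bp for the sites nearest to isolated regions and 1221 bp for all. Ranked by H3K4me3 fold they stood at 34.5 and 33.5 in del-cIDR and 32.4 and 29.1 in WT, below the 50.1, 49.8, 50.3 and 49.6 of sites nearest to isolated regions. Ranked by −log10 q they stood at 58.7, 60.2, 51.8 and 57.4, beside 56.1, 56.1, 55.1 and 55.4. The sites near clustered regions thus stood lower by fold in all 4 libraries, and by −log10 q higher in 3 and lower in WT replicate 1.

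Whole groups differed in their surroundings. Of the 60 spans, 31 enclosed or lay within 10 kb of an H3K4me3 region found in all 4 libraries, 17 of them enclosing one, while 8 lay more than 50 kb away. The most remote, at 347 kb, was the group on chromosome 14 that holds 14:10556328-10557968. H3K9me3 of any library fell in 6 spans. In 39 spans there were further H3K27ac regions that did not qualify as distal in all libraries, 55 in total.

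The comparison of genotypes asks whether losing the C-terminal disordered region of ALKBH5 went with a change in H3K27ac at these clusters. The del-cIDR libraries had longer peak lists throughout, with 27883 and 32353 H3K27ac peaks on chromosomes 1 to 19 against 25153 and 22810 in WT, and 1.30-fold more bases under peaks. Inside the 60 spans, with the 55 further H3K27ac regions there, the peaks covered 182.1 and 193.1 kb in del-cIDR and 177.1 and 154.0 kb in WT. The means were 187.6 ± 7.78 kb and 165.5 ± 16.3 kb (SD, n = 2 each), a 1.13-fold difference without overlap (exact two-sided permutation p = 0.333, the smallest that 2 against 2 libraries allow). In the clustered regions alone the peaks covered 160.3 and 164.4 kb in del-cIDR and 158.1 and 137.4 kb in WT. There del-cIDR replicate 1 and WT replicate 1 lay close together. With a joining gap of 5000 bp the log2 ratio of means in spans fell from 0.18 to 0.077 and the genotypes overlapped (exact permutation p = 1). With lists of equal length, which left 139 clustered regions in 43 groups, it was 0.22 without overlap (exact permutation p = 0.333).

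As a share of all peak bases of a library the order was opposite, with 0.923% and 0.880% in del-cIDR and 1.03% and 1.04% in WT. The means were 0.901% ± 0.0300 and 1.04% ± 0.00962 (SD, n = 2 each, exact permutation p = 0.333), and with lists of equal length the log2 ratio went from -0.20 to 0.03. The spans were chosen by peaks in every library, while the divisor counts all peaks of a library. Its mean was 20.8 Mb in del-cIDR and 16.0 Mb in WT. List length thus enters this share, and a genotype difference cannot be told apart from it. Taken as a share of the bases at regions found in all 4 libraries, the clustered regions held 1.30% and 1.31% in del-cIDR and 1.37% and 1.30% in WT (exact permutation p = 1). As a share of distal bases they held 4.07% and 4.17% against 4.09% and 3.99% (exact permutation p = 0.667). Both of these overlapped between the genotypes, so the clusters' part in H3K27ac shared by all libraries did not separate them.

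Peak length in single clustered regions was longer in both del-cIDR libraries than in both WT libraries for 52 regions (27.2%), where 34.7% of all regions found in 4 libraries were so. It was longer in both WT libraries for 27 (14.1%), where the background was 9.58%. Isolated regions had 27.8% and 13.9%, close to the clustered values. Summed over the distal regions of a group, 24 groups (40%) had more bases in both del-cIDR libraries and 4 (6.67%) in both WT libraries. Over all 4158 groups of distal regions, single regions included, these shares were 28.4% and 13.6%. Those are mostly groups of a single region, and no test was made of the groups against this background.

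Ranked among regions found in all 4 libraries, the fold of the clustered regions stood lower in both del-cIDR libraries than in both WT libraries. The median percentiles of 11.6 ± 0.978 and 15.8 ± 2.65 (SD, n = 2 each) had a difference (del-cIDR minus WT) of -4.28 points (exact permutation p = 0.333). The genotypes overlapped, with smaller differences, when fold was ranked within each whole list (-2.28 points) or groups of 4 or more regions were asked for (-1.99 points; each exact permutation p = 0.667), and the difference reversed with a joining gap of 5000 bp (1.31 points). Isolated regions also stood lower in del-cIDR, at 38.2 ± 1.19 against 45.7 ± 1.45, and regions with H3K4me3 stood higher, at 57.8 ± 0.772 against 54.0 ± 0.608 (each exact permutation p = 0.333). Ranks are relative, so they cannot tell a rise at regions with H3K4me3 from a fall at distal regions. A ranking among distal regions only leaves out any change that these share. Ranked among distal regions only, an alternative chosen after the data were seen, clustered regions had medians of 18.2 and 21.7 in del-cIDR and 23.0 and 19.3 in WT, which overlapped (exact permutation p = 0.667).

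A region was called shifted where both libraries of one genotype ranked above both of the other and the means differed by at least 10 percentile points. Of the 191 clustered regions 10 (5.24%) were shifted upward in del-cIDR, where 15.7% of all regions found in 4 libraries were so called. In WT 29 (15.2%) were higher, near the background of 16.0%. Isolated regions had 11.2% and 23.8%. Regions near either end of the scale have less room to shift by 10 points. Among the 126 clustered regions with a mean percentile under 25, 1 was higher in del-cIDR and 17 (13.5%) in WT, against 10.8% and 13.4% of all regions in that band. Ranked among distal regions only, 22 clustered regions (11.5%) were higher in del-cIDR and 22 (11.5%) in WT, beside 15.5% and 15.6% of all distal regions. The imbalance of 10 against 29 was thus not seen in that ranking, which leaves out any change shared by distal regions.

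**Figure D5:**
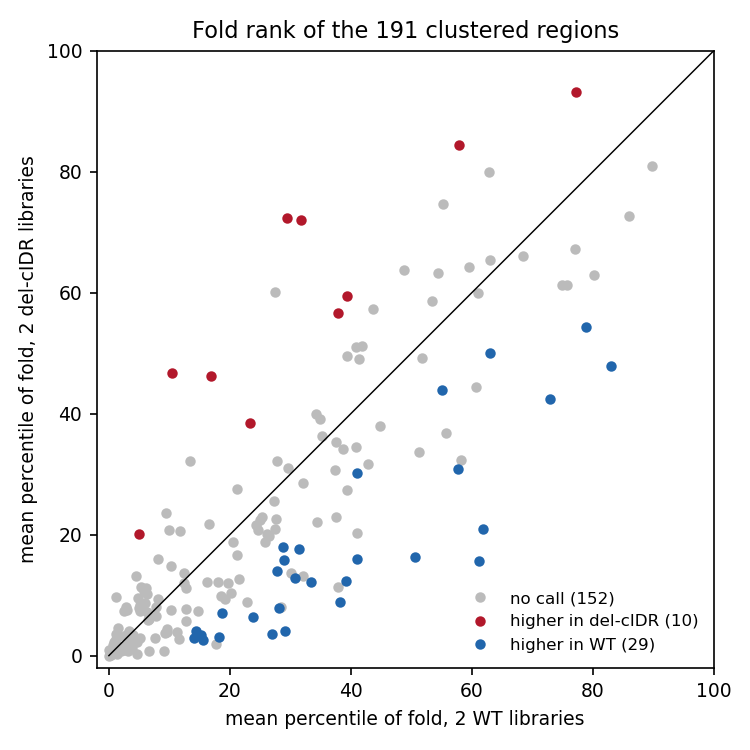
Mean percentile of fold enrichment of each of the 191 clustered regions in the 2 WT libraries (horizontal) and the 2 del-cIDR libraries (vertical), with the line of equality and shifted regions in colour. Most points crowd at the low end. Over the whole scale 10 regions (5.24%) are called higher in del-cIDR and 29 (15.2%) in WT. The shares over all regions found in 4 libraries are 15.7% and 16.0%.

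The region with the widest upward shift in del-cIDR was 4:144732121-144733088, at folds of 7.33 and 7.45 in del-cIDR and 5.06 and 4.51 in WT. It stood at the 75.2nd and 69.4th percentile against the 37.6th and 21.3rd, 42.9 points apart on average. Next came 2:154179920-154180505, in the group with the fewest covered bases, at percentiles of 74.2 and 69.8 in del-cIDR and 40.1 and 23.6 in WT, 40.2 points apart. In both regions the 2 del-cIDR percentiles lay near each other.

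The next were less even between replicates. At 11:62263807-62264511 the percentiles were 16.6 and 76.7 in del-cIDR and 9.84 and 11.0 in WT, so del-cIDR replicate 2 alone carried the 36.2 points. At 11:30432776-30433707, which lies between the 2 regions named above as highest by fold, they were 64.9 and 27.7 against 16.0 and 17.8, with del-cIDR replicate 1 the higher. The remaining ones were 19:28537790-28539217, 26.5 points apart with all 4 libraries above the 50th percentile, and 19:14640849-14642238, 20.1 points apart.

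In the opposite direction 1:191664551-191665622 moved furthest. Its folds were 4.28 and 4.57 in del-cIDR and 6.31 and 5.86 in WT, and its percentiles 14.6 and 16.7 against 67.2 and 55.3, a mean difference (del-cIDR minus WT) of -45.7 points. The next was 19:14622205-14623315, at 21.0 and 20.7 against 51.5 and 72.4. It belongs to the seventh group by covered bases, as does 19:14640849-14642238, so this group held regions shifted in both directions. At 13:84433357-84434145 the percentiles were 30.4 and 65.4 against 87.2 and 78.8. At 5:129983187-129983992 they were 7.44 and 25.1 against 31.9 and 69.5, where WT replicate 2 stood far above the others. The last were 14:10556328-10557968 and 11:69580087-69581348, with mean differences of -30.5 and -29.3 points.

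In 15 groups every region had a lower mean rank in del-cIDR, in 2 every region had a higher one, and in 43 the regions differed in direction. No such count was made for other sets of regions, so whether regions of a group moved together was not tested. Over single regions 123 of 191 (64.4%) were lower in del-cIDR, beside 61.5% of isolated regions and 50.2% of all regions found in 4 libraries.

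H3K27ac regions found in both libraries of one genotype and neither of the other were few inside the spans. Of the 246 H3K27ac regions there, 7 (2.85%) were del-cIDR-only in this sense and 2 (0.813%) were WT-only, where the shares over all merged regions were 6.22% and 1.86%. The members themselves could not be among them, since they were chosen for a peak in every library. Of the 43 regions in spans that lacked a library, these were 16.3% and 4.65%, against 8.49% and 2.53% of 35861 such regions in all. The one with the most evidence was 7:138458204-138458878, with folds of 4.04 and 3.32 and a −log10 q of 10.9 and 7.01 in del-cIDR. At 10:41340262-41340858, with folds of 3.15 and 2.75 in del-cIDR, H3K4me3 too was found in both del-cIDR libraries and no WT library. The other WT-only region besides that in the first group was 9:61172755-61173439, with folds of 3.32 and 3.38. A region absent from a list may lie just under the caller's threshold, and the WT lists were shorter.

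Summits, the positions of highest signal, lay about as far apart between genotypes as within them. In clustered regions the strongest summits of a pair of libraries lay a median of 101 to 115 bp apart, with 115 and 112 bp within genotypes and 101 to 106 bp between them. Isolated regions had 110 to 125 bp. All 4 summits lay within 200 bp of one another in 79 clustered regions (41.4%), in 36.7% of isolated regions and in 40.5% of all regions found in 4 libraries. The range of the 4 summits had a median of 250 bp in clustered and 260 bp in isolated regions.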

How the data were processed

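H3K27ac and H3K4me3 CUT&Tag and H3K9me3 CUT&RUN were analysed from 12 deposited peak lists, 1 per library. Per the submitters' processing notes, fastp, BWA, SAMtools, Picard, MACS2 and featureCounts were used with GRCm39; the sources used here give no versions, calling settings or use of a control. Each deposited list gives, per peak, the authors' fold enrichment (a ratio), −log10 p and −log10 q, an integer score and a summit position. The lists hold no counts, so read depth is unknown and no counting interval is given. Longer lists may reflect depth or threshold. H3K4me3 lists held 18367 to 19242 peaks on chromosomes 1 to 19 and H3K9me3 lists 20895 to 41183.

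Peaks overlapping by 1 bp were merged and grouped as described, with coordinates 1-based. A library's fold in a region is the highest among its peaks there. Genotypes were compared by the rank of fold within each library; folds printed side by side are each relative to their own library's background and were not tested. Genotypes were compared by exact two-sided permutation of libraries. The members, lists and alternatives were chosen with earlier results of these data known. Named were the 12 groups with the most covered bases and the next 5 by number of regions, then covered bases, and the 6 most shifted regions in each direction. Planned work on genes, marker genes and sequences was not made. Same-numbered replicates did not deviate together (Pearson r = 0.005 over regions, 2 pairs), so no pairing was used. The scripts were tested on simulated data and used Python 3.11.15, numpy 2.4.6, pandas 2.3.3, scipy 1.17.1 and matplotlib 3.10.9.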

Additional observations from a re-analysis of the deposited data

How the results depend on the processing

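Membership depended strongly on the rule, while most differences between genotypes kept their direction. Values below are in the order regions, groups, regions higher in del-cIDR, regions higher in WT, del-cIDR-only and WT-only regions in spans. Joining gap, group size and the exclusion of other marks leave the shares over all regions unchanged. These are 15.7% and 16.0% for shifts and 6.22% and 1.86% for genotype-only regions. For other settings the shares were not computed unless given, so those counts only describe how the sets changed. A joining gap of 5000 bp gave 21, 7, 3, 2, 0 and 0, and one of 25000 bp gave 503, 148, 40, 97, 29 and 6. Groups of at least 4 regions gave 35, 8, 1, 6, 2 and 1. Peaks with −log10 q of at least 5 gave 24, 8, 2, 5, 0 and 0, and peaks covering at least 50% of a region gave 51, 17, 3, 7, 3 and 0. Excluding only H3K4me3 and H3K9me3 peaks found in both libraries of a genotype gave 356, 109, 31, 54 and 14 for the first 5. Lists of equal length gave 3 and 0 genotype-only regions. A minimum of 20 points left 6 regions higher in del-cIDR and 14 in WT, with no share over all regions computed at that minimum. Ranking by −log10 q gave 26 higher in del-cIDR (13.6%, beside 17.8% of all regions found in 4 libraries) and 43 in WT (22.5%, beside 17.3%). Ranking among distal regions only gave 22 and 22. Both were chosen after seeing the data.

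The genotype difference in median rank was -2.28 points within whole lists, -1.99 for groups of at least 4 regions, -3.02 for 50% cover (each exact permutation p = 0.667) and -2.60 without chromosomes 6, 8 and 12. It reversed to 1.31 points with the 5000 bp gap (exact permutation p = 0.667), where 21 regions were left, and the share of peak bases to a log2 ratio of 0.033 with lists of equal length (exact permutation p = 0.667). The rank of clustered minus isolated regions reversed to 1.99 points under −log10 q. The log2 ratio of clustered over isolated peak bases was -0.11 with the 5000 bp gap, 0.051 for groups of at least 4 regions, -0.064 for −log10 q of at least 5 and -0.090 for 50% cover. It was also just above 0 with lists of equal length (0.0071) and with no H3K4me3 within 1000 bp (0.0060), so its sign was not stable. The cause of these changes was not tested.

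Leaving out each library in turn asked for a peak in 3 libraries, so more regions qualified by construction: 241 to 299 regions in 75 to 92 groups, with 26 to 39 higher in del-cIDR, 59 to 82 higher in WT, 10 to 22 del-cIDR-only and 2 to 9 WT-only. With 1 library in a genotype, fewer values have to separate for a call. The shares over all regions were not computed for these runs, so the counts are no result about the clustered regions. The log2 ratio of bases in spans ranged from 0.10 to 0.31, that of the share from -0.30 to -0.17, the genotype difference in rank from -4.82 to -1.92 points, clustered minus isolated rank from -27.2 to -26.1 points and clustered over isolated bases from -0.033 to 0.019.

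With differences taken within replicate number (replicate block), the log2 ratio of bases in spans was 0.18 and of the share -0.20, the rank difference -4.28 points, and 14 regions were higher in del-cIDR and 35 in WT. These calls asked only for the same direction within each replicate number. The share over all regions was not computed for them, so the counts are no result about the clustered regions. With 2 libraries per genotype no permutation test could pass a threshold, and without counts the depth behind each peak is unknown.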

Other observations

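Chromosome X was outside the rule. Under the same steps it had 1461 merged H3K27ac regions, 359 of them in all 4 libraries and 123 distal, and 10 of these formed 3 groups. The group at X:74778077-74803052 held 4 regions with 3959 bp covered, and its peaks measured 3256 and 3156 bp in del-cIDR and 2931 and 2034 bp in WT. The group at X:7858924-7875779 held 3 regions with 3780 bp covered, and gave 2875 and 3351 bp in del-cIDR against 2830 and 2319 bp in WT. The group at X:129439129-129458304 held 3 regions with 2866 bp covered, and gave 2781 and 2575 bp against 2133 and 1951 bp. In all 3 both del-cIDR values lay above both WT values, as they did in 26 of the 60 autosomal spans (43.3%).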
